A study of Mus musculus with 6 samples.

Results

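The genes examined were the receptors of the EGF receptor family (Egfr, Erbb2, Erbb3, Erbb4), the neuregulins Nrg1, Nrg2 and Nrg3, and the EGF-like ligands Hbegf, Btc and Tgfa. They were chosen by name, as 10 of the 23955 genes in the files, and 7 of them had enough counts to be tested. Their ribosome-bound mRNA was compared between astrocytes of the diencephalon and astrocytes of cortical grey matter in adult mice, with 3 libraries per region and the RNA of 3 mice pooled in each library. The diencephalon was taken without the tissue around the third ventricle, and the cortex without meninges and white matter. The mice, of both sexes, were 3 months old and on a C57BL/6 background; no untagged or untreated control was analysed here. In both regions they carried the same alleles: Slc1a3tm1(cre/ERT2)Mgoe, a tamoxifen-inducible Cre in the Slc1a3 (GLAST) locus that leaves the mice Slc1a3 +/-; B6N.129-Rpl22 tm1.1Psam/J, the floxed RiboTag allele of a ribosomal protein (Rpl22HA fl/fl); and the GFP reporter transgene Tg(CAG-cat,-EGFP)1Rbns (GFP+). Tamoxifen was given by oral gavage from 9 weeks of age, 3 times at intervals of 48 h, so that cells with an active Slc1a3 locus incorporated haemagglutinin-tagged ribosomes, which were pulled down with an antibody to the tag. The tag thus marks cells by Slc1a3 activity, and mRNA of other cells that came through the pull-down is measured together with theirs.

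The EGF receptor family are transmembrane tyrosine kinases that signal as dimers. EGFR binds EGF, TGF-alpha (Tgfa), HB-EGF (Hbegf) and betacellulin (Btc), ERBB3 and ERBB4 bind neuregulins, ERBB4 also binds HB-EGF and betacellulin, ERBB2 has no known ligand of its own and serves as the preferred dimer partner, and ERBB3 has little kinase activity. The ligands are made as membrane-bound precursors and released by cell-surface proteases, and the active receptors feed the RAS to ERK and PI3K to AKT pathways until they are ubiquitinated, internalised and degraded. In the brain EGFR is known from neural stem and progenitor cells and from reactive astrocytes, ERBB4 from interneurons, and ERBB3 from oligodendrocyte lineage cells.

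Library totals ran from 1733145 to 2334237 expected counts, so 3 counts of a gene, the limit below which a level was not read, correspond to 1.31 to 1.86 CPM (counts scaled to library size). Pairwise chi-square values over genes, divided by their degrees of freedom, were 2.7 to 3.6 within a region, or 6.31 to 7.39 where cortical replicate 3 was of the pair, and 22.4 to 27.7 between regions. Each was counted as its own sample. Astrocyte markers were detected: 17 of 18 had enough counts to be tested and none was at 0 in a region. Their summed level was 20130 to 23440 CPM in diencephalon and 28930 to 36300 CPM in cortex, of which Slc1a2 alone had means of 8960 and 16210 CPM. Detection alone does not show enrichment of astrocytes, since 8 of 8 general neuron markers and 11 of 12 meningeal and fibroblast markers also had enough counts. RNA of other cells was present in both regions, and its amount differed between them, as given beside the results below. Slc1a3, the locus that drives the Cre, stood at 747.4 ± 32.1 CPM in diencephalon and 1047 ± 270 CPM in cortex (SD, n = 3), and Rpl22, the tagged gene, at 22.9 ± 3.27 and 27.2 ± 4.01 CPM. In edgeR the Slc1a3 difference was −0.49 ± 0.16 on the log2 scale (adjusted p = 0.0244), and without any of diencephalon replicates 1 to 3 or cortical replicates 1 and 2 its adjusted p was 0.0637 to 0.157. Without cortical replicate 3 the Slc1a3 difference was −0.69 (edgeR, adjusted p = 6.46e-06).

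Per length of transcript, Egfr was the most abundant of the 4 receptors in both regions and Erbb4 the next, and of the pair Erbb4 differed more between regions. Levels of different genes are compared here in TPM, which divides by transcript length. Egfr stood at 82.2 ± 11.1 TPM in diencephalon and 95.7 ± 15.0 TPM in cortex (SD, n = 3). Erbb4 stood at 56.0 ± 8.37 TPM in diencephalon and 18.6 ± 3.07 TPM in cortex. The gap between the receptors was narrow in diencephalon and wide in cortex, and their libraries did not overlap in either region. Erbb2 had 3.76 ± 1.04 and 6.58 ± 2.13 TPM, and Erbb3 had 3.34 ± 0.78 and 1.84 ± 1.63 TPM.

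Of the summed TPM of the 4 receptors, Egfr made up 60.9%, 53.9% and 54.8% in diencephalon replicates 1 to 3 and 76.3%, 81.3% and 75.9% in cortical replicates 1 to 3. Erbb4 made up 33.5%, 40.8% and 41.4% in diencephalon and 15.9%, 15.1% and 14.4% in cortex. The shares did not overlap between regions for either receptor, nor did those of Erbb2 (2.18% to 3.28% against 3.32% to 6.72%). Since shares are parts of the same sum, a higher share of Erbb4 lowers that of Egfr. Egfr TPM itself overlapped between regions, so its share is not a result apart from that of Erbb4. The summed receptor TPM itself, 145.2 ± 14.9 in diencephalon and 122.8 ± 15.7 in cortex (SD, n = 3), did overlap. On log2(TPM + 1) the median difference of all genes was 0.22. In CPM the receptors summed to means of 201.8 in diencephalon and 207.7 in cortex, which also overlapped. Put as a ratio, Egfr TPM over Erbb4 TPM was 1.82, 1.32 and 1.32 in diencephalon and 4.8, 5.39 and 5.27 in cortex. The two-sided exact permutation test of this ratio gave p = 0.1, the smallest that 3 libraries against 3 allow.

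**Figure D1:**
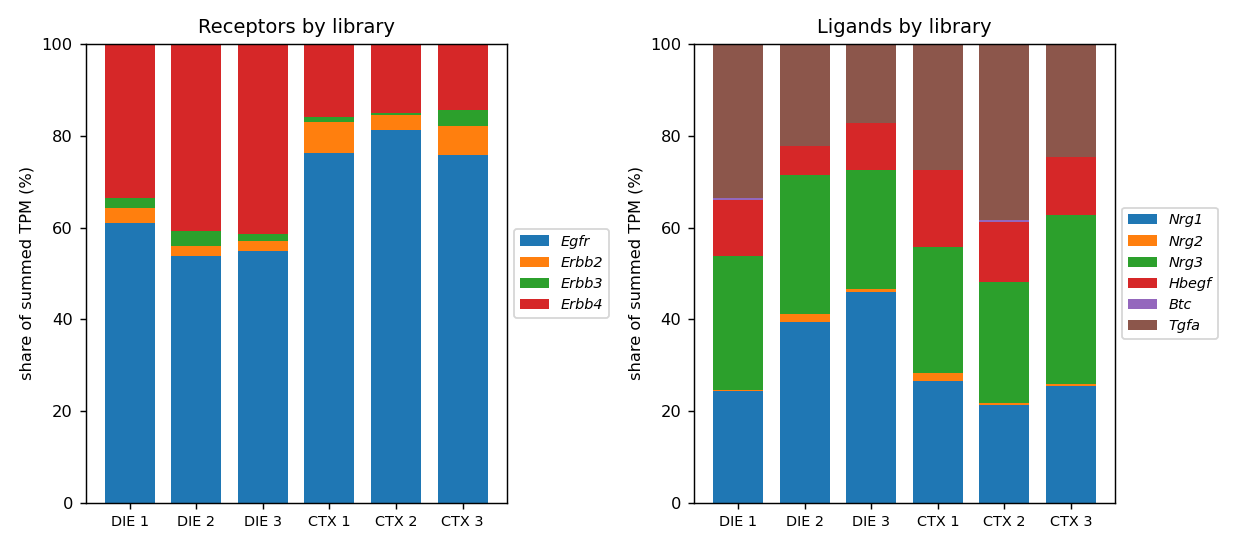
Share of each gene in the summed TPM (percent, vertical axis) of the 4 receptors and of the 6 ligands, by library (DIE, diencephalon; CTX, cortical grey matter; 3 libraries each). Erbb4 takes 33.5% to 41.4% of the receptor sum in diencephalon and 14.4% to 15.9% in cortex, and the ligand shares overlap between regions except those of Hbegf.

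The order of all 10 genes also differed in where Erbb4 stood. In diencephalon the order by mean TPM was Egfr, Nrg1, Erbb4, Nrg3, Tgfa, Hbegf, Erbb2, Erbb3, Nrg2 and Btc. Neighbours from Egfr to Tgfa overlapped in their libraries, so the order of neighbours is not resolved, and so did Erbb2, Erbb3 and Nrg2. In cortex it was Egfr, Tgfa, Nrg3, Nrg1, Hbegf, Erbb4, Erbb2, Erbb3, Nrg2 and Btc, with Egfr clear of the next gene, Tgfa, Nrg3 and Nrg1 overlapping in turn, and Hbegf overlapping with Erbb4. Erbb4 was thus among the abundant genes in diencephalon and at the level of Hbegf in cortex. Among the genes tested, mean Erbb4 TPM was at the percentile 60.5 in diencephalon and 28.7 in cortex, against 72.9 and 79.3 for Egfr.

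Among the tested members, Erbb4 was higher in diencephalon and Egfr lower by the edgeR test, and the other 5 did not pass. For comparison, 14.9% of the 10568 genes tested were higher in diencephalon and 14.8% lower, so 1 of 7 in each direction is close to the background. Non-overlapping libraries, counted in CPM, were found for Erbb4 (higher) and for Erbb2 and Hbegf (lower). Of all genes tested, 21.8% had all diencephalon libraries above all cortical ones and 20.8% had them below. The median log2 difference of the 7 was −0.29, beside 0.01 for all genes tested. Since the mice within a library were pooled, the p-values measure the spread between pools. In such bulk libraries a lower level can reflect fewer cells of a type or less RNA per cell, which cannot be told apart.

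Erbb4, the neuregulin receptor with full kinase activity, was 2.58-fold higher in diencephalon. Its level was 56.6, 58.5 and 72.6 CPM in diencephalon replicates 1 to 3 and 26.2, 26.6 and 19.2 CPM in cortical replicates 1 to 3. The lowest diencephalon library thus lay above the highest cortical library. The means were 62.6 ± 8.76 and 24.0 ± 4.13 CPM (SD, n = 3), and the log2 difference was 1.37 ± 0.20 (SE), a 1.93- to 3.44-fold difference by the 95% interval (edgeR, adjusted p = 1.66e-05). It passed under all 15 alternative settings, with log2 differences of 1.24 to 1.59 and adjusted p of 1.82e-09 to 0.00129. The files hold 1 Erbb4 transcript model, so the isoforms of this receptor were not separated.

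Erbb4 is also a gene of other cells, in particular interneurons, whose markers differed in both directions. The 12 interneuron markers summed to 393 to 462 CPM in diencephalon and 257 to 317 CPM in cortex, a 1.47-fold difference in the means, or 1.21-fold without Gad2. Of the 8 that were tested, Kcnc2, Gad2, Slc32a1 and Dlx1 were higher in diencephalon, Sst was 3.83-fold lower (adjusted p = 3.68e-06), and Gad1, Lhx6 and Reln did not pass. Of those not tested, Npy had 5 counts over the diencephalon libraries and 22 over the cortical ones, Vip had 0 and 25, and Pvalb had 2 and 0. The 13 subcortical neuron markers differed more, at 2105 to 2709 CPM in diencephalon and 221 to 275 CPM in cortex, with all 6 that were tested higher; Pmch, Hcrt, Avp, Th and Pomc had no count in cortex and Agrp had none in diencephalon. General neuron markers were lower in diencephalon in sum (1877 to 1963 against 2602 to 3709 CPM), with 2 of 8 higher and 2 lower. Their sum was 1.59-fold lower in the means, or 1.19-fold without Snap25. The part of these cells in the Erbb4 difference was not tested.

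Egfr, the receptor for EGF, TGF-alpha and HB-EGF, was 1.31-fold lower in diencephalon, a difference at the edge of the test. Its level was 146, 109.7 and 136 CPM in diencephalon replicates 1 to 3 and 175, 198 and 142 CPM in cortical replicates 1 to 3. The regions overlapped, since diencephalon replicate 1 lay above cortical replicate 3. The means were 130.7 ± 18.8 and 171.5 ± 28.4 CPM (SD, n = 3) and the log2 difference was −0.39 ± 0.15 (SE; 95% interval −0.70 to −0.09; edgeR, adjusted p = 0.0472).

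The Egfr call held under 6 of the 15 alternatives and was lost under the others. In edgeR it held without diencephalon replicate 1 (adjusted p = 0.0389) and without cortical replicate 3 (log2 difference −0.51, adjusted p = 0.00299). The adjusted p was 0.233 without diencephalon replicate 2, 0.0956 without diencephalon replicate 3, 0.102 without cortical replicate 1 and 0.224 without cortical replicate 2. It was 0.0756 in DESeq2, 0.0523 with limma and voom, and 0.392 with limma on log2(TPM + 1), where the log2 difference was −0.22. On that scale the median of all genes was 0.22, and Egfr stood −0.43 from it. The direction was the same under all 15 alternatives. The summed astrocyte markers were 1.56-fold lower in diencephalon, or 1.38-fold without Slc1a2, with 7 of 17 lower and 1, Slc4a4, higher; their part in the Egfr difference was not tested.

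Erbb2, the ligandless dimer partner, was sparsely counted, with 14, 7 and 9 counts in diencephalon and 30, 13 and 16 in cortex. In CPM these were 6.55, 3.69 and 4.70 against 13.1, 6.92 and 9.94. No diencephalon library reached the lowest cortical one, though the margin between 6.55 and 6.92 CPM is under 1 count, and in TPM and in raw counts the regions overlapped. The log2 difference of −0.997 ± 0.40 (SE; 95% interval −1.83 to −0.17) did not pass in edgeR (adjusted p = 0.0647). Without cortical replicate 2 its adjusted p was 0.0481, and with the gene length trend removed 0.0456.

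Erbb3, the kinase-poor neuregulin receptor, did not pass the count filter. It had 8, 8 and 5 counts in diencephalon and 4, 1 and 7 in cortex, which overlap. The summed counts of 21 and 12 gave a ratio of 1.7 with an exact 95% interval of 0.799 to 3.79, so a difference was not detectable at this depth. This interval and those of the other sparse genes cover counting error only. Erbb3 is a gene of oligodendrocytes and their progenitors. Oligodendrocyte markers summed to 1857 to 2498 CPM in diencephalon and 858 to 1106 CPM in cortex, with 9 of 11 tested members higher, and progenitor markers to 216 to 235 and 255 to 284 CPM, with 1 of 8 higher and 3 lower.

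**Figure D2:**
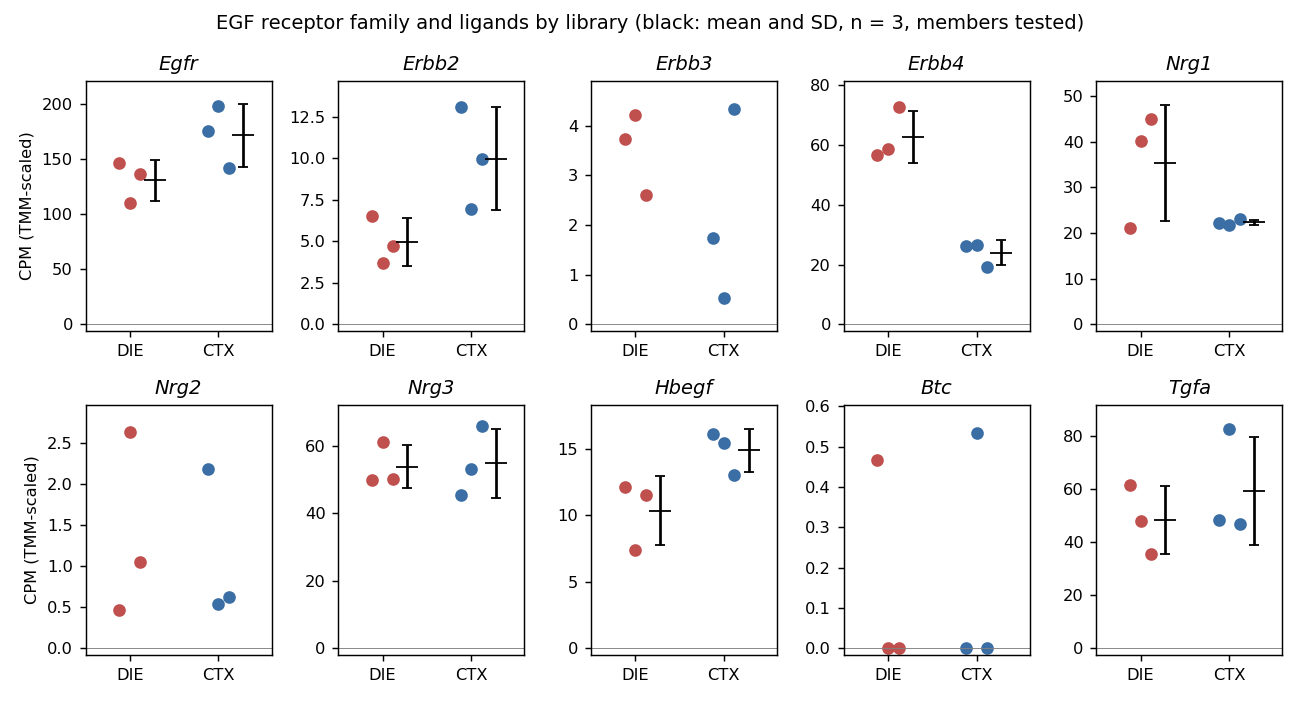
Level of each of the 10 genes (CPM, vertical axes starting near 0 and differing between panels) in the 3 diencephalon (DIE) and 3 cortical grey matter (CTX) libraries; black marks give the mean and SD for the 7 genes tested. Erbb4 lies between 56.6 and 72.6 CPM in diencephalon and between 19.2 and 26.6 CPM in cortex, while Egfr, Nrg1, Nrg3 and Tgfa overlap.

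Of the ligands, none of the 4 that were tested (Nrg1, Nrg3, Hbegf, Tgfa) passed, and Nrg1 came nearest. Nrg1, a neuregulin that binds ERBB3 and ERBB4, was at 21.1, 40.1 and 44.9 CPM in diencephalon replicates 1 to 3 and at 22.2, 21.8 and 23.0 CPM in cortical replicates 1 to 3. The cortical libraries were closely alike, and diencephalon replicate 1 lay below all of them while the other two lay well above. The log2 difference was 0.65 ± 0.25 (SE; 95% interval 0.13 to 1.18; edgeR, adjusted p = 0.0556). The value depended on which diencephalon library was left out: the log2 difference was 0.92 without replicate 1 (adjusted p = 0.00541), 0.55 without replicate 2 (0.19) and 0.44 without replicate 3 (0.297). The adjusted p was also 0.0326 with no count filter and 0.04 with the length trend removed. In TPM the same libraries were at 39.3, 76.6 and 86.0 against 37.1, 35.2 and 38.2 and did not overlap. The margin there is narrow, 39.3 against 38.2 TPM, on a scale where the median log2 difference of all genes was 0.22. In CPM the regions overlapped. Nrg1 has many splice forms, which differ in how they are tethered and released, and the files hold 1 model of it, so the value covers only what was counted to that model.

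Nrg3, an ERBB4 ligand of the nervous system, was at 50.1, 61.2 and 50.2 CPM in diencephalon and 45.4, 53.2 and 65.8 CPM in cortex. The regions overlapped throughout, and the 95% interval of the fold, diencephalon over cortex, was 0.759 to 1.29 (edgeR, adjusted p = 0.956). Tgfa, the EGFR ligand, was at 61.3, 48.0 and 35.5 CPM in diencephalon and 48.4, 82.5 and 46.6 CPM in cortex. Its spread within a region was as wide as any difference between them, with a log2 difference of −0.29 ± 0.23 (SE; 95% interval −0.78 to 0.20; adjusted p = 0.384). Hbegf, a ligand of EGFR and ERBB4, was at 12.2, 7.38 and 11.5 CPM in diencephalon and 16.1, 15.4 and 13.0 CPM in cortex. All diencephalon libraries lay below the cortical ones in CPM but not in TPM, and the log2 difference of −0.52 ± 0.31 (SE; 95% interval −1.16 to 0.11) did not pass (adjusted p = 0.213).

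Nrg2 and Btc were at or near the limit of detection. Nrg2, a further neuregulin, had 1, 5 and 2 counts in diencephalon and 5, 1 and 1 in cortex, a ratio of summed counts of 1.11 (exact 95% interval 0.352 to 3.6). Btc had 1 count in diencephalon replicate 1 and 1 in cortical replicate 2, and no fold is given. Per length, the ligands summed to 181.4 ± 17.5 TPM in diencephalon and 151.3 ± 12.5 TPM in cortex (SD, n = 3), which overlap. Nrg1 made up 36.5% ± 11.1 of that sum in diencephalon and 24.5% ± 2.74 in cortex, Nrg3 28.4% and 30.1%, Tgfa 24.3% and 30.1%, and Hbegf 9.64% and 14.3%. In CPM the ligands summed to means of 149.3 in diencephalon and 152.5 in cortex, which also overlapped.

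**Figure D3:**
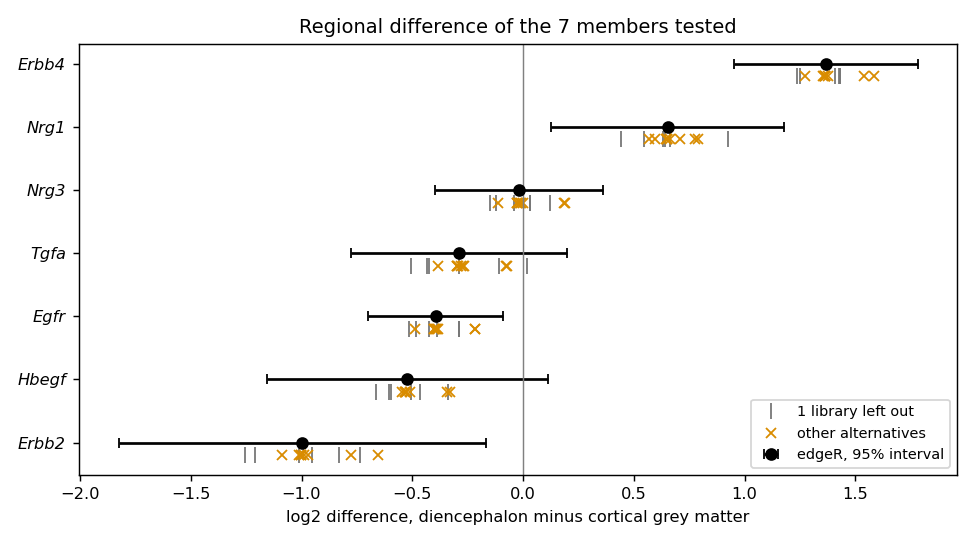
Log2 difference, diencephalon minus cortical grey matter, of the 7 tested genes (edgeR estimates from 3 libraries per region with 95% intervals). Erbb4 at 1.37 and Egfr at −0.39 passed the test, and the interval of Nrg3 spans −0.40 to 0.36.

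Genes whose profile over the 6 libraries was most like that of a receptor were ranked by the root mean square difference of centred log2(CPM + 1) profiles, among 8772 genes (8773 for Erbb2) with a mean of at least 10 CPM. For Erbb4 these were Irs2, an insulin receptor substrate (0.0934), Lrig3, a leucine-rich repeat membrane protein (0.107), and Grb10, an adaptor that binds the insulin receptor (0.126). Irs2 was at 79.5, 83.3 and 98.8 CPM in diencephalon and 42.3, 41.5 and 26.1 CPM in cortex, following Erbb4 in having its highest level in diencephalon replicate 3 and its lowest in cortical replicate 3. For Egfr they were Ybx1, a nucleic acid binding protein (0.0274), Gorasp2, a Golgi stacking protein (0.0542), and Prkcdbp, a caveola protein (0.0551). Ybx1 was at 88.9, 67.0 and 87.3 CPM in diencephalon and 110.8, 126 and 88.2 CPM in cortex, so it too overlapped between regions. For Erbb2 the nearest were Palmd (0.173), Hint1 (0.182) and Clip2 (0.191), at larger distances than for Egfr or Erbb4. Erbb2 had 7 to 30 counts per library, against 31 to 139 for Erbb4 and 208 to 401 for Egfr. The part of counting error in these distances was not tested. The likeness describes these 6 libraries and includes the difference between regions.

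The other genes of the pathway were followed in lists that hold 90 genes, of which 76 were tested; 12 were higher in diencephalon and 11 lower, and the median log2 difference over all 76 was 0.04. These shares are near the 14.9% and 14.8% of all genes. The split moved with the scaling, as it did for all genes. With the gene length trend removed it was 9 higher and 17 lower, beside 1355 and 1583 of all 10568 genes. With limma on log2(TPM + 1) it was 20 higher and 9 lower of 82, beside 2118 and 958 of 14296, on a scale where the median of all genes was 0.22. Of the 23 genes called, 15 passed under every alternative in which they were tested. None of the other ligands (Egf, Areg, Ereg, Epgn, Nrg4) had enough counts to be tested, and Areg and Epgn had no count in any library. Nrg4 had 8 counts over the diencephalon libraries and 9 over the cortical ones, Egf 3 and 1, and Ereg 0 and 1.

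Of the 11 tested genes of ligand release and trafficking, 1 was higher and none lower in diencephalon; the list's median log2 difference was 0.30. The gene was Adam22, a member of the ADAM family without protease activity (340.1 ± 10.1 against 254.9 ± 38.7 CPM; log2 difference 0.42, adjusted p = 0.0165). Its adjusted p was 0.054 without diencephalon replicate 2, 0.0673 without diencephalon replicate 3, 0.0833 without cortical replicate 1, 0.105 without cortical replicate 2 and 0.0635 with the length trend removed. The number of genes called in this list ran from 0 to 4 over the alternatives. It was 0 without diencephalon replicates 2 or 3 or cortical replicate 2, and also with the length trend removed. It was 2 without cortical replicate 3, 4 without diencephalon replicate 1 (3 higher and 1 lower), and 4 with limma on log2(TPM + 1), all higher. The ligand-releasing proteases Adam10 (log2 difference 0.42, adjusted p = 0.117) and Adam17 (0.30, adjusted p = 0.187) themselves did not pass in edgeR. All their diencephalon libraries lay above the cortical ones, as for 21.8% of all genes tested. For Adam10 the margin was narrow (46.93 against 46.68 CPM).

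Of the 14 tested genes of receptor turnover and inhibition, 5 were higher in diencephalon and none lower, beside 14.9% and 14.8% of all genes tested. The list's median log2 difference was 0.24. With the length trend removed, and without cortical replicate 1, the split was 4 higher and 1 lower, and on the TPM scale 7 higher. Lrig1, a membrane protein that promotes degradation of EGF receptor family members, was at 164.2, 163.5 and 159.9 CPM in diencephalon and 59.8, 33.0 and 42.2 CPM in cortex. The regions lay far apart, 3.57-fold by the edgeR estimate (adjusted p = 4.05e-08). Its relatives Lrig2 (92.3 ± 12.3 against 57.2 ± 4.72 CPM, adjusted p = 0.00228) and Lrig3 (15.5 ± 0.64 against 6.14 ± 1.04 CPM, adjusted p = 0.00387) were 1.6-fold and 2.48-fold higher. Itch and Wwp1, related ubiquitin ligases known to bind ERBB4, were 1.55-fold (adjusted p = 0.000566) and 1.33-fold higher (adjusted p = 0.0241). The Wwp1 call was lost without diencephalon replicate 2 (adjusted p = 0.0597), diencephalon replicate 3 (0.155), cortical replicate 1 (0.0918) or cortical replicate 2 (0.0571), in DESeq2 (0.0521) and with the length trend removed (0.0886). Errfi1, an intracellular inhibitor of EGFR, had a log2 difference of 0.29 (adjusted p = 0.168). Of the same list, Cblb had −0.32 (edgeR, adjusted p = 0.0658) and Cbl 0.13 (adjusted p = 0.48). All diencephalon libraries of Cblb lay below the cortical ones, while those of Errfi1 and Sh3kbp1, which did not pass either, all lay above. Summed oligodendrocyte markers (2.23-fold), subcortical neuron markers (9.64-fold) and ependymal and choroid plexus markers (7.21-fold) were also higher in diencephalon, and their part in the differences of this list was not tested.

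Of the 17 tested adaptors and scaffolds, 4 were higher and 2 lower, and the list's median was 0.00. Gab1 and Gab2, docking proteins, had log2 differences of 0.46 (adjusted p = 0.0139) and 0.49 (adjusted p = 0.00702). Shc3, a neural adaptor, had 0.51 (adjusted p = 0.0141), and Erbb2ip (erbin), a scaffold that binds ERBB2, 0.42 (adjusted p = 0.0146). Dlg4 (PSD-95), a postsynaptic scaffold that binds ERBB4, was lower, with a log2 difference of −0.66 (adjusted p = 0.000578), as was Shc4 with −0.84 (adjusted p = 0.0248). Gab2 and Dlg4 passed under every alternative, while the others did not.

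Without diencephalon replicate 2, 3 genes of the adaptor list were called. The Shc3 adjusted p was then 0.145, and 0.0668 without cortical replicate 1. For Gab1 it was 0.0725 without diencephalon replicate 1, 0.0555 without diencephalon replicate 2 and 0.0608 without cortical replicate 2, and 0.0512 with the length trend removed. Erbb2ip had 0.071 without diencephalon replicate 3 and 0.0627 with the length trend removed. For Shc4 the call was lost without any of diencephalon replicates 1 to 3 or cortical replicates 1 and 2 (0.0557 to 0.074), in DESeq2 (0.0673) and with limma on log2(TPM + 1) (0.171). Dlg4 marks excitatory synapses, and cortical excitatory neuron markers were 4.82-fold lower in diencephalon in sum (983.5 to 1397 against 5446 to 6430 CPM; 11 of 11 tested lower), or 2.95-fold without Camk2a; their part in this difference was not tested.

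Among the 20 kinases and regulators of the RAS to ERK and PI3K to AKT pathways, 1 was higher and 2 were lower, and the median stood at −0.11. Akt2, a kinase downstream of PI3K, was at 104.8, 117 and 82.0 CPM in diencephalon and 233, 269 and 244 CPM in cortex. Every diencephalon library lay below every cortical one by a wide margin, with a log2 difference of −1.29 ± 0.14 (SE; edgeR, adjusted p = 3.45e-07). The related Akt1 did not pass. Pik3cd, a PI3K catalytic subunit best known from leukocytes, was higher at 15.1 ± 3.84 against 6.87 ± 2.57 CPM (log2 difference 1.16, adjusted p = 0.0183). Its adjusted p was 0.0839 without diencephalon replicate 2, 0.0753 without diencephalon replicate 3 and 0.113 without cortical replicate 1, and 0.0543 with limma on log2(TPM + 1). Microglia markers overlapped between regions in sum (377 to 678 against 531 to 1267 CPM) and were 1.74-fold lower in diencephalon in the mean, with Cx3cr1 and P2ry12 lower and the other 8 of 10 tested not passing. With the length trend removed, 2 genes of this list were higher and 6 lower.

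Feedback and target genes of ERK were lower in diencephalon in 7 of 14 tested cases and higher in 1, beside 14.8% and 14.9% of all genes tested. The list's median log2 difference was −0.72, and 7 to 9 of its genes were called under the alternatives. Egr1, an immediate early transcription factor, was at 66.4, 49.0 and 48.6 CPM in diencephalon and 279.7, 271.5 and 189 CPM in cortex. Every cortical library was far above every diencephalon library, 4.51-fold by the edgeR estimate (adjusted p = 3.85e-09). Etv5, a transcription factor induced by receptor tyrosine kinases, was at 173.6, 132.9 and 143 CPM against 363.9, 373 and 317 CPM, 2.34-fold lower (adjusted p = 3.04e-07). Dusp7, an ERK phosphatase, was 1.89-fold lower (131.7 ± 25.3 against 249.7 ± 35.5 CPM, adjusted p = 6.01e-05), and Phlda1 3.22-fold lower (15.3 ± 8.04 against 49.8 ± 10.8 CPM, adjusted p = 0.000116).

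The other genes called in the feedback list, named after their values were seen, were Spred1, an inhibitor of RAS signalling (1.63-fold lower, adjusted p = 0.000173), Dusp6, another ERK phosphatase (2.11-fold lower, adjusted p = 0.00212), and the feedback inhibitors Spry2 and Spry4. Spry2 was 1.7-fold lower (adjusted p = 0.0182) and Spry4 1.54-fold higher (adjusted p = 0.0038), so the Sprouty genes did not move together. The Spry2 adjusted p was 0.0708 without diencephalon replicate 1, 0.103 without diencephalon replicate 3, 0.0504 without cortical replicate 2, 0.0607 without cortical replicate 3 and 0.164 with limma on log2(TPM + 1). These genes also respond to other receptors and, for Egr1, to neuronal activity. Beside the neuron markers given above, meningeal and fibroblast markers were 5.81-fold lower in diencephalon in sum (835.8 to 1256 against 4486 to 8120 CPM), or 2.78-fold without Ptgds. Endothelial and mural markers were 2.27-fold lower in sum (97.0 to 131 against 180.7 to 305.6 CPM), or 1.51-fold without Vtn, with Cdh5 and Vtn lower and the other 4 of 6 tested not passing. Ependymal and choroid plexus markers were 7.21-fold higher in sum (142 to 173 against 6.21 to 37.8 CPM), or 4.58-fold without Ttr, with 4 of 5 tested higher. Astrocyte markers were 1.56-fold lower in sum, or 1.38-fold without Slc1a2, with 7 of 17 tested lower and 1 higher. Microglia markers were 1.74-fold lower in the mean of their sums, which overlapped. The part of these cells in the list's counts was not tested.

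**Figure D4:**
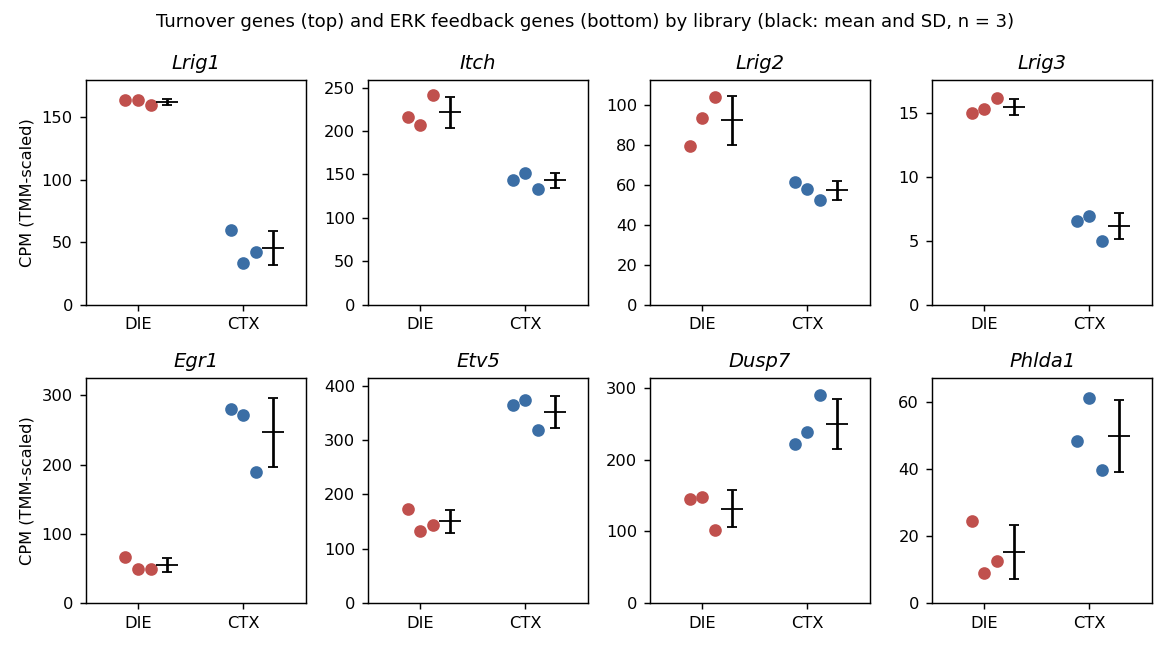
Level by library (CPM, axes from 0) of the turnover genes Lrig1, Itch, Lrig2 and Lrig3 (top) and the ERK feedback and target genes Egr1, Etv5, Dusp7 and Phlda1 (bottom) in diencephalon (DIE) and cortical grey matter (CTX); black marks give the mean and SD of 3 libraries. The libraries of the regions do not overlap in any of the 8 panels, with Lrig1 at 159.9 to 164.2 CPM in diencephalon and 33.0 to 59.8 CPM in cortex.

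**Figure D5:**
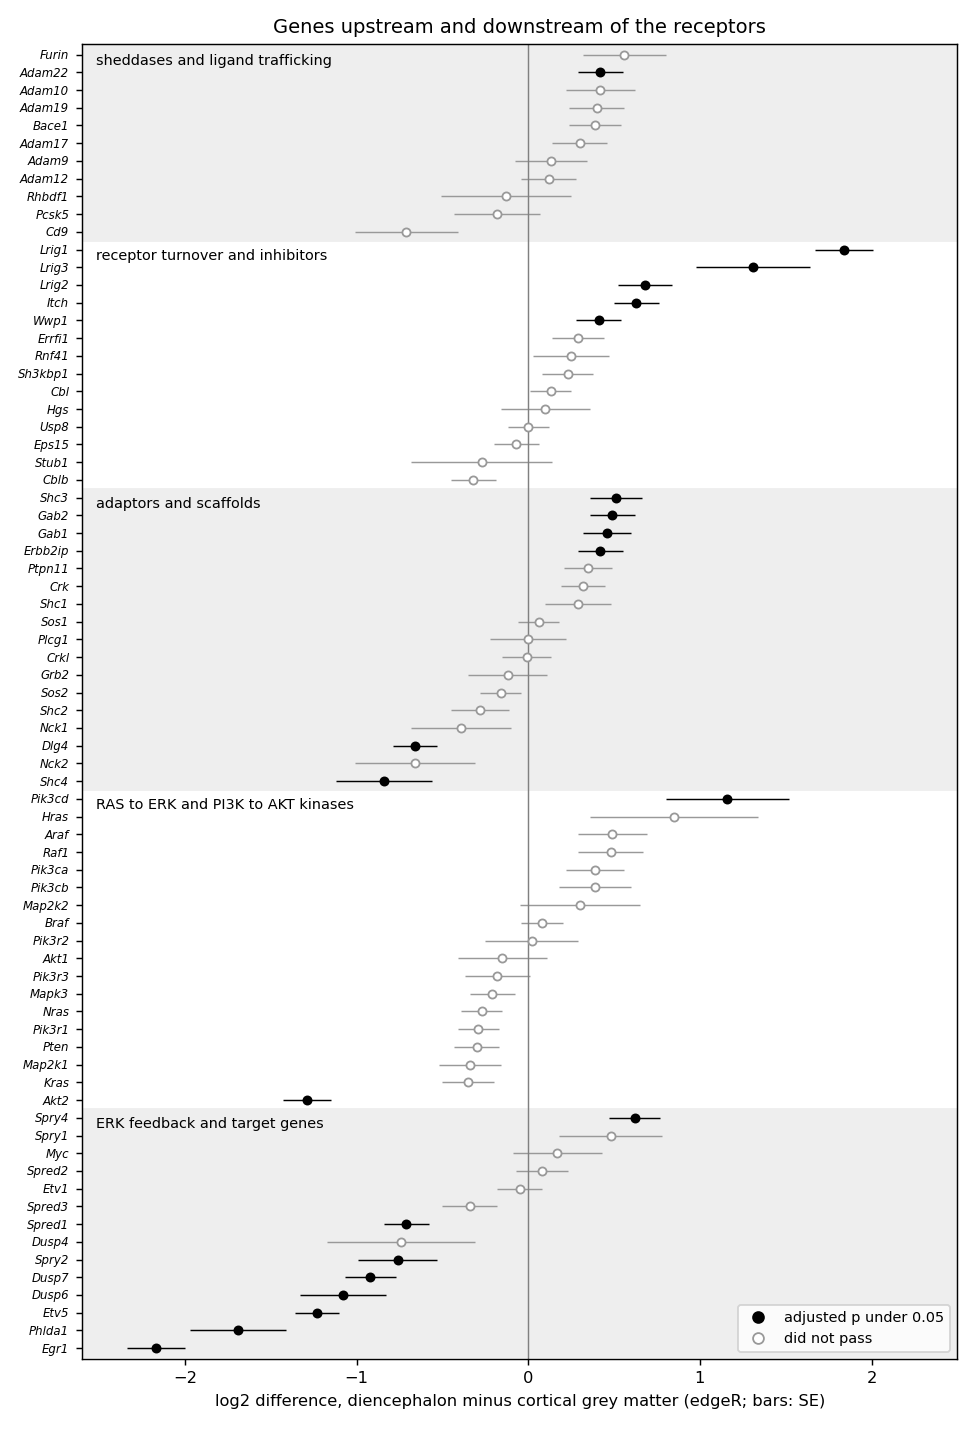
Log2 difference, diencephalon minus cortical grey matter, of tested pathway genes (edgeR, bars are SE), grouped by list, with 2 genes of the kinase list not drawn; filled points passed at an adjusted p of 0.05. The filled points of the turnover list lie to the right of 0 and those of the feedback list, except Spry4, to the left.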

How the data were processed

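Ribosome-bound RNA was amplified (Ovation) and sequenced on an Ion Proton, per the labels' protocols, which state no molecular identifiers. RSEM and build mm9 are named in the submitters' processing notes; neither versions nor an aligner or strand setting is given in the sources used here. For each gene the deposited files hold RSEM expected counts, TPM, FPKM, and gene and effective length. The deposited expected counts of all 10 members were whole, though 3.64% to 3.99% of a library's values were not. The authors' TPM and FPKM values are scaled by length and library total; FPKM served only to check ranks. No coordinates or sequences are given.

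Counts were rounded, scaled by TMM (trimmed mean of M values) and fitted over all genes with edgeR's quasi-likelihood test (edgeR 4.0.16, limma 3.58.1, R 4.3.3; region as only term, robust; filterByExpr, minimum count 10; 10568 of 23955 genes), with Benjamini-Hochberg adjustment over all genes at 0.05. The script was tested on simulated data. CPM values are TMM-scaled; ± is the SD over 3 libraries or the SE of a log2 difference; intervals are 95% and not adjusted. Rn45s, the ribosomal RNA precursor, took 1.77% to 4.48% of counts and was kept.

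All 10 members are named, and from each list the 4 genes with the smallest adjusted p (all if 5 or fewer passed); for each tested receptor, the 3 genes most like it. Named outside this rule, after their values were seen, are Erbb2ip, Shc4, Spred1, Dusp6, Spry2 and Spry4, and list genes given as not passing. The counts of the kinase list and of all pathway genes include genes that are not reported here. The members and lists were chosen with earlier results of these data known. Alternatives were RLE size factors, DESeq2 1.42.0, limma with voom, no filter, a minimum count of 30, the replicate block, limma on log2(TPM + 1) and log2(TPM + 0.1), an offset taking out the gene length trend (natural spline), and leaving out each library.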

Additional observations from a re-analysis of the deposited data

How the results depend on the processing

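Of the 10 members, 2 were called (Erbb4 higher, Egfr lower). The number was 1 in DESeq2, with limma and voom, with the replicate block, and with limma on log2(TPM + 1) and log2(TPM + 0.1), in each case Erbb4 alone; it was 4 with the gene length trend removed, 2 higher and 2 lower. Leaving out 1 library gave 1 to 3. With the replicate block the Egfr adjusted p was 0.0592; it changed no other member's call. Same-numbered libraries of the 2 regions deviated from their group means with correlations of 0.06, −0.10 and 0.00, and no library correlated best with its own number. The log2 difference of Nrg3, −0.02 in edgeR, was 0.002 with limma and voom, 0.186 on log2(TPM + 1) and 0.189 on log2(TPM + 0.1), and −0.151 to 0.123 without 1 library; that of Tgfa was −0.505 to 0.019 without 1 library, and above 0 only without cortical replicate 2. The cause of these changes was not tested. The count of pathway genes called ran from 17 to 29. The order of the 10 members by TPM was the same by FPKM and by expected count over effective length. Depth limits Erbb3, Nrg2 and Btc, which had 21, 8 and 1 counts over the diencephalon libraries.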
